A study of Mus musculus with 4 samples.

Results

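Fibroblasts given 4 ng/ml of FGF2 were compared with those given 13 and 40 ng/ml, using the 3 treated arrays of a series of 6. All 3 treated arrays were chosen by their labelled dose. The 3 untreated arrays served only as the zero level and as a measure of spread. The cells were CF1 mouse embryonic fibroblasts, grown in medium with fetal calf serum, inactivated with mitomycin C so that they no longer divide, and replated on gelatine at 55000 cells per square centimetre. Controls and treated cells alike then spent 24 h in the serum-replacement medium used as basic medium for human embryonic stem cells, without FGF2 (3 biological replicates) or with 4, 13 or 40 ng/ml of FGF2 (1 array each). Total RNA (300 ng) was amplified by in vitro transcription (6 h) and carried Cy3 label and measured on one-colour Illumina bead arrays. A difference between 4 ng/ml and the higher doses and a peculiarity of the 1 array at 4 ng/ml cannot be told apart in this design.

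FGF2 is a secreted growth factor that binds FGF receptor tyrosine kinases together with heparan sulphate. The receptors signal through Ras and the ERK kinases, through PI3 kinase and through phospholipase C, and ERK signalling induces its own feedback inhibitors. In cultured fibroblasts FGF2 is known to promote growth and to oppose the myofibroblast program that TGF-beta drives. Inactivated fibroblasts of this kind serve as feeder cells for pluripotent stem cells.

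The 6 arrays had median signals of 102.5 to 113.6 over 46116 probes, and 11195 (4 ng/ml) to 11698 probes were detected on each. Of these probes, 12350 were detected on at least 2 arrays and were tested, and 3605 genes with a symbol had a tested probe. Symbols rest on reading part of each probe identifier as a gene number, an inference described with the processing. All 7 fibroblast markers that had a named probe were detected, among them Col1a1, Col1a2, Dcn and Prrx1, and their summed signal was 34717 to 42145 on the controls and 22353 to 26577 with FGF2. Of the other markers with a probe, detected were 1 of 6 for leukocytes (Lyz2), 1 of 3 for endothelium (Eng), 2 of 4 for epithelium (Cldn4 and Krt18), 2 of 5 for fat and cartilage (Cebpa and Lpl), 0 of 5 for pluripotent cells and the only muscle marker with a probe, Chrna1. In such bulk RNA, fewer cells of a type and less RNA per cell cannot be told apart.

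Gene expression at 13 and 40 ng/ml was nearly the same, and the 4 ng/ml array lay between these and the controls. After normalisation, the first principal component held 86.4% of the variance and placed the controls at -28.28 to -26.64, the 4 ng/ml array at 15.65, the 13 ng/ml array at 33.23 and the 40 ng/ml array at 33.6. Between the single arrays at 13 and 40 ng/ml, 0 of 12350 probes (0%) differed at least 2-fold, against 44 between 4 and 13 ng/ml, 56 between 4 and 40 ng/ml and 2 to 9 between pairs of controls. Over the 539 FGF2-responsive probes that were detected with FGF2, the median size of the log2 difference was 0.089 between 13 and 40 ng/ml. The same median was 0.099 to 0.119 between pairs of controls, and 0.485 and 0.490 between 4 ng/ml and 13 or 40 ng/ml. By this median, responsive probes differed no more between 13 and 40 ng/ml than between replicate controls. Only 2 of the 539 probes differed by more than 0.5 (log2) between 13 and 40 ng/ml, those of the protease inhibitor gene Serpina3g (0.59 lower at 40 ng/ml) and the collagen gene Col3a1 (0.57 lower at 40 ng/ml). With 1 array at each dose these values carry no test.

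For the comparison of 4 ng/ml with 13 and 40 ng/ml, limma was fitted to all 6 arrays in 3 classes (control, 4 ng/ml, and 13 with 40 ng/ml), so that the spread comes from the controls and from the difference between 13 and 40 ng/ml. Adjusted p values are Benjamini-Hochberg values over all 12350 probes, the threshold is 0.05, and differences are log2 values at 4 ng/ml minus the mean of 13 and 40 ng/ml with the standard error of that fit (n = 1 against 2). Of 12350 probes, 579 (4.69%) differed, with 285 higher (2.31%) and 294 lower (2.38%) at 4 ng/ml. The share higher at 4 ng/ml was 49.2%, and it was 35.8% of 302 probes when arrays were scaled to the same median instead of quantile-normalised. The median size of the called differences was 0.585 on the log2 scale. For 10413 probes (84.3%) the 95% interval of the difference lay within 1.5-fold either way. Without the 40 ng/ml array 151 probes passed, without the 13 ng/ml array 176, without control replicate 1 360, and without control replicate 2 884.

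Genes were called responsive to FGF2 when the mean of the 3 treated arrays differed at least 2-fold from the controls with an adjusted p under 0.05 in limma. This contrast is orthogonal to the dose contrast, so it does not favour either sign of the dose difference. It gave 258 raised probes (2.09% of those tested) and 344 lowered probes (2.79%). The smallest response inside the threshold was 1.0002 and the largest outside it 0.9974 on the log2 scale. A responsive probe was counted as needing more than 4 ng/ml when it differed between doses (adjusted p under 0.05) with 4 ng/ml nearer the controls. It was counted as at plateau at 4 ng/ml when it did not pass and its 95% interval lay within 1.5-fold, and as undetermined otherwise.

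With a 2-fold responder threshold and a 1.5-fold margin, more responsive probes needed more than 4 ng/ml than were at plateau. Of the 258 raised probes, 141 changed further between 4 ng/ml and the higher doses, 61 were at plateau and 56 were undetermined. Of the 344 lowered probes, 130 changed further, 59 were at plateau and 92 were undetermined, while 63 were undetected on all 3 treated arrays and have no order among doses. With the 13 ng/ml array left out, 63 raised and 57 lowered probes changed further and 39 raised probes were at plateau, and without the 40 ng/ml array 61 and 45 changed further and 37 lowered probes were at plateau. The order of both classes depended on the thresholds. With a responder fold of 1.5, 207 raised and 176 lowered probes changed further against 354 and 367 at plateau. Among lowered probes, those at plateau were also more numerous with neqc background correction (63 against 73) and with a plateau margin of 2-fold (130 against 149). None of the raised or lowered probes was more extreme at 4 ng/ml than at the higher doses by this test. At 4 ng/ml the response was smaller than on both higher-dose arrays in 246 of 258 raised probes and in 268 of 281 lowered probes that were detected with FGF2. Counted by named gene, 31 of 64 raised genes changed further and 14 were at plateau, and 39 of 94 lowered genes changed further and 9 were at plateau.

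**Figure D1:**
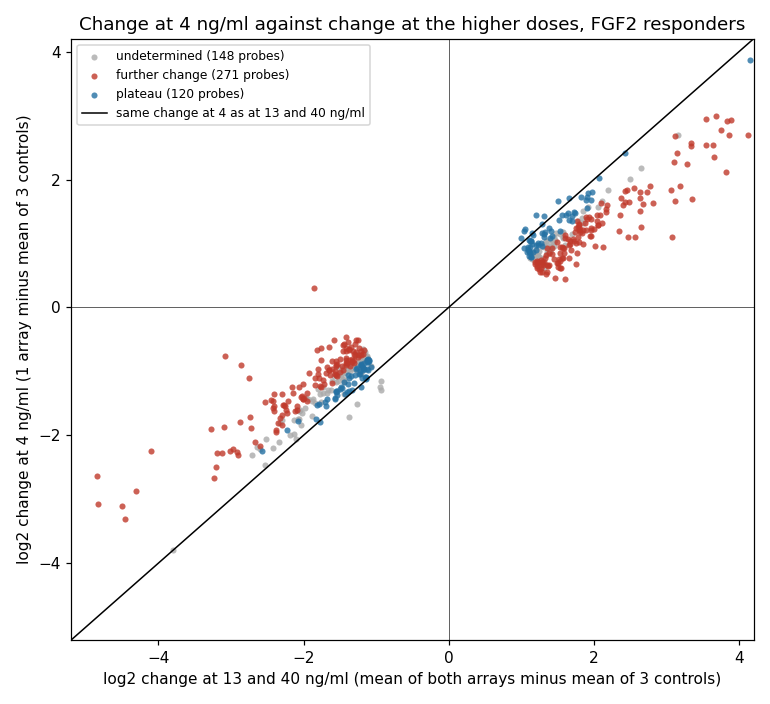
Log2 change at 4 ng/ml (vertical axis) against the mean log2 change at 13 and 40 ng/ml (horizontal axis), each minus the mean of 3 controls, for the 539 FGF2-responsive probes detected with FGF2, coloured by dose class. Most points lie between the diagonal of equal change and the line of no change at 4 ng/ml, on the raised and the lowered side alike.

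On the log2 scale the median raised probe had reached 69.1% of its change at 4 ng/ml (quartiles 59.1% and 78.1%), and the median lowered probe detected with FGF2 71.3% (quartiles 61.9% and 81.2%). Taking each control array alone as the zero level moved these medians only between 68.7% and 69.5% for raised and between 70.9% and 72.7% for lowered probes. Of the raised probes, 59 were undetected on all 3 controls, so their zero level and share are only bounds. Lowered probes undetected with FGF2 were left out, so the medians rest on unlike sets. Over 90% of the change was reached at 4 ng/ml by 22 raised and 30 lowered probes, and under 50% by 29 raised and 22 lowered probes. In linear signal the medians were 54.7% for raised and 82.4% for lowered probes, so the sizes of raised and lowered shares were close on the log2 scale and apart on the linear scale. In the authors' deposited table the log2 medians were 71.1% (192 probes) and 69.9% (239 probes). Shares of different probes use the same arrays and are not replicates.

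Raised probes that changed further had a median log2 change of 1.14 at 4 ng/ml and 1.81 at the higher doses, whereas those at plateau had 1.17 and 1.29. Lowered probes that changed further had medians of -1.06 and -1.79, and those at plateau -1.11 and -1.29. Plateaus were found mostly among small responses. With a mean log2 response of 1 to 1.5, 41 of 143 raised and 47 of 165 lowered probes were at plateau. With a response of 2 to 3 this held for 2 of 32 and 2 of 50, and at 3 or more for 1 of 17 and 0 of 8. A fixed margin of 1.5-fold is a larger part of a small response than of a large one, so the rule alone finds fewer plateaus among large responses. The median share reached at 4 ng/ml had no such trend, with 67.4% at 1 to 1.5 and 74% at 3 or more for raised probes, and 69.1% and 67.9% for lowered probes.

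**Figure D2:**
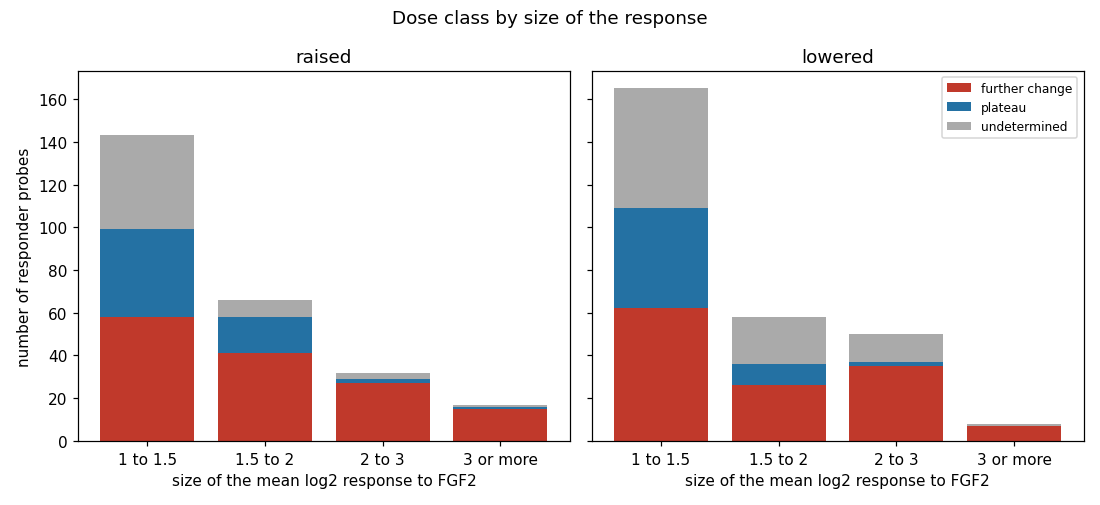
Number of raised (left) and lowered (right) responsive probes in each dose class, stacked, by the size of the mean log2 response to FGF2. Plateau probes make up 41 of 143 raised and 47 of 165 lowered probes in the lowest range, and 1 of 17 and 0 of 8 in the highest.

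Among the raised genes that needed more than 4 ng/ml were feedback regulators of growth factor and cytokine signalling. Errfi1, a feedback inhibitor of the EGF receptor family, had log2 signals of 9.38, 9.49 and 9.47 on the controls, 11.98 at 4 ng/ml, 13.04 and 13.15 at 13 and 40 ng/ml. It had risen 5.79-fold at 4 ng/ml and 12.5-fold at the higher doses, a difference of -1.11 ± 0.11 (adjusted p = 0.000511). Socs2, a suppressor of cytokine signalling through JAK and STAT proteins, had 7.60, 7.76 and 7.53 on the controls, 9.14 at 4 ng/ml and 10.09 and 10.44 at 13 and 40 ng/ml. It reached 57.3% of its log2 change at 4 ng/ml (-1.13 ± 0.15, adjusted p = 0.00267). In both genes the 4 ng/ml array stood clear of the controls and of the higher doses. Rasa1, a GTPase-activating protein that switches Ras off, had 10.84 at 4 ng/ml and 11.51 and 11.53 at the higher doses, above a control mean of 9.63 (difference -0.69 ± 0.10, adjusted p = 0.00468).

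Cited2, a transcriptional co-regulator that competes with hypoxia-inducible factor for CBP and p300, had the smallest share of the named raised responders at 4 ng/ml. Its controls were at 6.91, 6.98 and 7.37, its 4 ng/ml array at 7.54, and its 13 and 40 ng/ml arrays at 8.70 and 8.66. Only 28.2% of its change was present at 4 ng/ml, close to the highest control (difference -1.15 ± 0.17, adjusted p = 0.00396, -0.56 with neqc). It was detected on 1 of the 3 controls. Srxn1, a sulfiredoxin that reactivates oxidised peroxiredoxins, had 46.1% of its change at 4 ng/ml, with 9.75 there, 10.62 and 10.67 at the higher doses and a control mean of 8.99 (adjusted p = 0.00184). Gprc5a, an orphan receptor of the G protein-coupled class, was undetected on all controls and had 7.24 at 4 ng/ml against 8.06 and 8.14 (53.6%, adjusted p = 0.00174, a difference of -0.86 and of -0.29 with neqc).

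Chrna1, which encodes a muscle acetylcholine receptor subunit, was undetected on the 3 controls. It was detected at 4 ng/ml with a log2 signal of 9.03 and at 13 and 40 ng/ml with 9.98 and 10.09, a difference of -1.001 ± 0.14 (adjusted p = 0.00338). Over all treated arrays it was at least 6.45-fold above the detection limit of the controls. Rbm47, an RNA-binding protein, and Dlgap1, a scaffold protein of the postsynaptic density, were undetected both on the controls and at 4 ng/ml and detected at both higher doses. Both genes passed the detection filter only through the higher-dose arrays, and a probe detected only at 4 ng/ml could not have been tested. Their calls are therefore no separate support for a dose difference. Their signals at 13 and 40 ng/ml were at least 1.51-fold (Rbm47) and 1.53-fold (Dlgap1) above those at 4 ng/ml (limma adjusted p = 0.00553 and 0.0034). Both calls ended with neqc in place of normexp background correction (adjusted p = 0.0568 for Rbm47 and 0.0591 for Dlgap1), and that for Rbm47 also without the 40 ng/ml array.

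Of 6 tested genes of prostaglandin and tetrahydrobiopterin synthesis, 3 passed, each lower at 4 ng/ml than at the higher doses, against 74 of 3605 named genes. This list and the gene lists below were chosen with earlier results of these data known. Their counts are therefore descriptions and no test of enrichment. Ptges, a prostaglandin E synthase, had 7.94, 7.92 and 7.68 on the controls, 8.46 at 4 ng/ml and 9.26 and 9.50 at 13 and 40 ng/ml, with 40.3% of its change at 4 ng/ml (-0.91 ± 0.14, adjusted p = 0.00569). Ptgis, the prostacyclin synthase, had 8.62, 8.50 and 8.52 on the controls, 8.998 at 4 ng/ml and 9.79 and 9.75 at the higher doses (-0.77 ± 0.11, adjusted p = 0.00323). Its mean response of 0.97 was just under the 2-fold threshold for responsive genes. Gch1, which makes the precursor of tetrahydrobiopterin, had 7.58, 7.53 and 8.001 on the controls, 10.61 at 4 ng/ml and 11.42 and 11.66 at the higher doses (-0.92 ± 0.18, adjusted p = 0.0188). By this brightest probe Gch1 rose 7.51-fold at 4 ng/ml and 14.3-fold at the higher doses, with 75.9% of its log2 change at 4 ng/ml. A second Gch1 probe also changed further (-1.085), with 38.2% at 4 ng/ml. That probe was undetected on the controls, so its share is only a bound. The cyclooxygenases Ptgs1 and Ptgs2 differed by -0.48 each without passing (adjusted p = 0.106 and 0.0625), and the prostaglandin-degrading enzyme gene Hpgd was undetected with FGF2. Ptges did not pass when the 40 ng/ml array was left out (adjusted p = 0.0539), nor did Gch1 without either higher-dose array or with a normexp offset of 16 (up to 0.115).

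Of 9 neural and axon genes tested, 4 passed and each was lower at 4 ng/ml, against 74 of 3605 named genes. Sema7a, a membrane-anchored semaphorin, had 8.30 at 4 ng/ml and 9.04 and 9.12 at 13 and 40 ng/ml over a control mean of 7.01 (-0.77 ± 0.11, adjusted p = 0.0034). The neurofilament gene Nefm (-0.74, adjusted p = 0.006), the intermediate filament gene Nes (-0.60, adjusted p = 0.0415) and the growth cone protein gene Gap43 (-0.50, adjusted p = 0.0317) followed the same order, with 57.7% to 70.5% of their log2 changes at 4 ng/ml. Nefm was dim, with 7.18 at 4 ng/ml after a rise of 1.01 over the controls, so the zero level of its share is uncertain. The 5 others, including Tubb3, Robo1 and Ncam1, did not pass, and the interval of 4 of them lay within 1.5-fold. This list, too, was chosen with earlier results known, so its count is no test of enrichment. The call for Sema7a was kept in all 13 alternatives tried, and those of Nefm, Nes and Gap43 each ended in at least 2.

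Other raised genes were at plateau at 4 ng/ml. Spp1, which encodes the secreted phosphoprotein osteopontin, had 12.07, 12.14 and 12.06 on the controls and 14.51, 14.53 and 14.51 at 4, 13 and 40 ng/ml. The 3 treated arrays differed less among themselves than the controls did, and the difference of -0.01 ± 0.10 had a 95% interval of -0.24 to 0.21. Noct, a deadenylase-like protein with a circadian rhythm, had 10.05 at 4 ng/ml and 9.91 and 9.88 at the higher doses over a control mean of 8.39, with an interval of -0.09 to 0.40. Gnb4, a G protein beta subunit, had 9.18, 9.25 and 9.30 over a control mean of 8.14, with an interval of -0.36 to 0.16.

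Ccl2, a monocyte chemoattractant, met the plateau rule without being flat. Its log2 signals were 11.62, 11.87 and 11.98 at 4, 13 and 40 ng/ml over a control mean of 10.50, and its interval of -0.56 to -0.06 did not include 0 (adjusted p = 0.149). The granzyme gene Gzmd (-0.55 to -0.01) and the deubiquitinase gene Stambpl1 (-0.53 to -0.07) were similar. Egln3, an oxygen-sensing prolyl hydroxylase that marks hypoxia-inducible factor for degradation, had 79.7% of its change at 4 ng/ml and an interval of -0.53 to 0.02. Mmp12, the macrophage elastase, was undetected on the controls and had 7.60, 7.40 and 7.47 at 4, 13 and 40 ng/ml. With a stricter margin 7 raised probes met the plateau rule in place of 61, and with a margin of 2-fold 115.

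**Figure D3:**
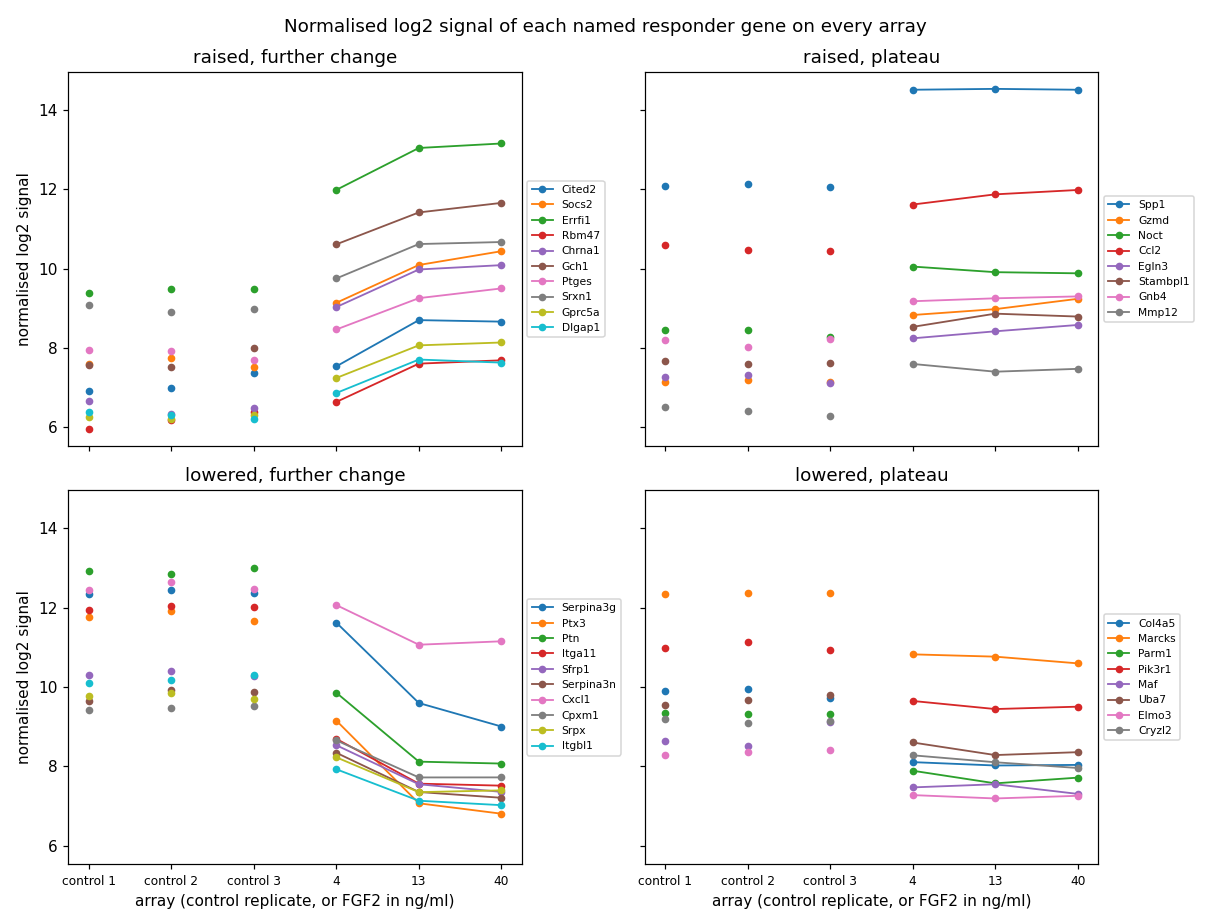
Normalised log2 signal of each named FGF2-responsive gene on every array, in panels for raised and lowered genes that changed further (left) or were at plateau at 4 ng/ml (right); points are single arrays, and lines join the 3 doses. In the left panels the 4 ng/ml array lies between the controls and the higher doses, and in the right panels Spp1 has 14.51, 14.53 and 14.51 at the 3 doses.

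Among the lowered genes, secreted proteins of inflammation and growth control needed more than 4 ng/ml. Serpina3g, 1 of a family of many similar serine protease inhibitors, had 12.35, 12.45 and 12.36 on the controls, 11.62 at 4 ng/ml, and 9.59 and 9.002 at 13 and 40 ng/ml. It had fallen 1.7-fold at 4 ng/ml and 8.5-fold at the higher doses, which left it 5-fold higher at 4 ng/ml (2.32 ± 0.19, adjusted p = 0.000175). Whether its probe also measures relatives in that family was not tested. Ptx3, a secreted pentraxin of innate immunity, had 11.77, 11.91 and 11.66 on the controls, 9.15 at 4 ng/ml and 7.07 and 6.80 at 13 and 40 ng/ml (2.22 ± 0.14, adjusted p = 2.7e-05), and it was detected on only 1 of the 2 higher-dose arrays. Ptn, the heparin-binding growth factor pleiotrophin, had 12.92, 12.84 and 13.01 on the controls, 9.85 at 4 ng/ml and 8.12 and 8.07 at the higher doses (1.76 ± 0.11, adjusted p = 2.7e-05). Ptn had thus fallen 8.4-fold at 4 ng/ml and 28.5-fold at the higher doses.

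Cxcl1, a neutrophil-attracting chemokine, fell mainly above 4 ng/ml. Its controls were at 12.44, 12.64 and 12.47, its 4 ng/ml array at 12.06, and its 13 and 40 ng/ml arrays at 11.06 and 11.15, so that 32.2% of its fall was present at 4 ng/ml (0.96 ± 0.12, adjusted p = 0.00176). Of the 10 cytokine, chemokine and growth factor genes tested, 5 passed, each higher at 4 ng/ml (Ptn, Ptx3, Cxcl1, Vegfc and Cxcl14), against 90 of 3605 named genes. The median difference over the 10 was 0.49, against 0.01 over all named genes. Since earlier results of these data were known when the list was chosen, these values are no test of enrichment. Vegfc, a lymphangiogenic growth factor, had 13.1% of a small fall at 4 ng/ml (0.50 ± 0.10, adjusted p = 0.0205). The calls for Ptn, Ptx3 and Cxcl1 were kept in all 13 alternatives, although the difference of Ptx3 was 1.14 with neqc, and those for Vegfc and Cxcl14 ended in 5 and 7 of them.

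Integrin and adhesion genes moved both ways. Itga11, a collagen-binding integrin subunit, had 11.95, 12.03 and 12.01 on the controls, 8.69 at 4 ng/ml and 7.56 and 7.51 at 13 and 40 ng/ml. Its fall was 9.88-fold at 4 ng/ml and 22-fold at the higher doses (1.15 ± 0.10, adjusted p = 0.000248, 0.57 with neqc). A second Itga11 probe was not detected with FGF2. Itga6, the laminin-binding alpha subunit, rose instead, with 7.65 at 4 ng/ml and 8.35 and 8.30 at the higher doses over a control mean of 6.55 (-0.67 ± 0.10, adjusted p = 0.00507, -0.29 with neqc). The Itga6 control mean lay among the control signals of Chrna1, which was undetected there, so its zero level is uncertain. Of 9 tested genes 3 were higher at 4 ng/ml (Itga11, Itgbl1 and Vcam1) and 2 lower (Itga6 and Alcam), against 90 and 74 of 3605 named genes. The calls for Itgbl1, Vcam1 and Alcam ended in 1, 2 and 3 alternatives. In each of the 5 the higher doses lay further from the controls than 4 ng/ml did.

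Matrix, protease and contractile genes that differed were all higher at 4 ng/ml, where their fall was incomplete. Of 3605 named genes, 90 were higher at 4 ng/ml. Among 9 collagen genes 2 passed, Col5a1 (13.57 at 4 ng/ml against 12.91 and 12.95, control mean 14.24, adjusted p = 0.0105) and Col1a2 (9.77 against 9.30 and 9.07, control mean 11.18, adjusted p = 0.0366). Col6a1, a chain of beaded-filament collagen, had 12.72 at 4 ng/ml and 12.74 and 12.64 at 13 and 40 ng/ml over a control mean of 13.60, and so had reached 96.2% of its fall. Col1a1 and Col3a1 were undetermined, with differences of 0.38 ± 0.12 and 0.60 ± 0.21. Of 14 other matrix genes 3 passed, Ccdc80, a secreted matrix protein (0.72 ± 0.10, adjusted p = 0.0034), Fbln1, which encodes fibulin 1 (0.73 ± 0.11, adjusted p = 0.00454), and Vcan, the proteoglycan versican (0.62 ± 0.14, adjusted p = 0.029). A second Vcan probe, not detected at 13 and 40 ng/ml, did not pass (at least 1.22-fold higher at 4 ng/ml, adjusted p = 0.0825). Fbln1 had 9.68 at 4 ng/ml and 8.91 and 8.99 at the higher doses over a control mean of 10.20, which is 41.3% of its fall.

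Of 12 proteases and inhibitors of the matrix, 4 passed (against 90 of 3605 named genes higher at 4 ng/ml), the aggrecanase Adamts5 (0.74 ± 0.13, adjusted p = 0.0104), the procollagen peptidase Adamts2 (0.74 ± 0.13, adjusted p = 0.0112), the metalloprotease Adam12 (0.45 ± 0.10, adjusted p = 0.0334) and the metalloprotease inhibitor Timp3 (0.56 ± 0.13, adjusted p = 0.0433). A second Timp3 probe, not detected at 13 and 40 ng/ml, was at plateau (at least 1.11-fold higher at 4 ng/ml, adjusted p = 0.148). Acta2, smooth muscle actin and the marker of myofibroblasts, had 9.57 at 4 ng/ml against 8.88 and 8.65 over a control mean of 10.77, so that 59.9% of its fall was present at 4 ng/ml (0.80 ± 0.12, adjusted p = 0.00428). Mylk, myosin light chain kinase, had reached 83.2% (0.44 ± 0.11, adjusted p = 0.0449), while Palld and Cald1 did not pass. The TGF-beta ligands Tgfb2 and Tgfb3 had reached 73.8% and 77.2% of their falls, with differences of 0.55 ± 0.10 (adjusted p = 0.0135) and 0.47 ± 0.11 (adjusted p = 0.0348). The secreted Wnt antagonist Sfrp1 had 8.53 at 4 ng/ml against 7.55 and 7.35 (1.08 ± 0.12, adjusted p = 0.000918), and the IGF-binding protein gene Igfbp3 8.02 against 7.46 and 7.43 (0.57 ± 0.14, adjusted p = 0.0451). Ccdc80, Fbln1 and Acta2 kept their calls in all 13 alternatives. Those for Adamts5 and Adamts2 ended in 2, for Col5a1 in 3, for Tgfb2 in 5, for Adam12 and Tgfb3 in 7, for Col1a2, Vcan, Timp3, Mylk and Igfbp3 in 8, and for Sfrp1 with neqc alone (adjusted p = 0.0703).

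Further lowered genes that changed past 4 ng/ml were the protease inhibitor gene Serpina3n (1.06 ± 0.13, adjusted p = 0.00186), the carboxypeptidase-like gene Cpxm1 (0.93 ± 0.10, adjusted p = 0.000918), Srpx, a sushi-repeat protein (0.86 ± 0.11, adjusted p = 0.00196), and Itgbl1, an integrin beta-like secreted protein (0.85 ± 0.12, adjusted p = 0.0034). Cpxm1 had 8.65 at 4 ng/ml and 7.72 at both higher doses over a control mean of 9.48, or 46.9% of its fall. It kept its call with neqc (0.48, adjusted p = 0.0317), whereas Serpina3n, Srpx and Itgbl1 did not (adjusted p = 0.295, 0.166 and 0.344).

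**Figure D4:**
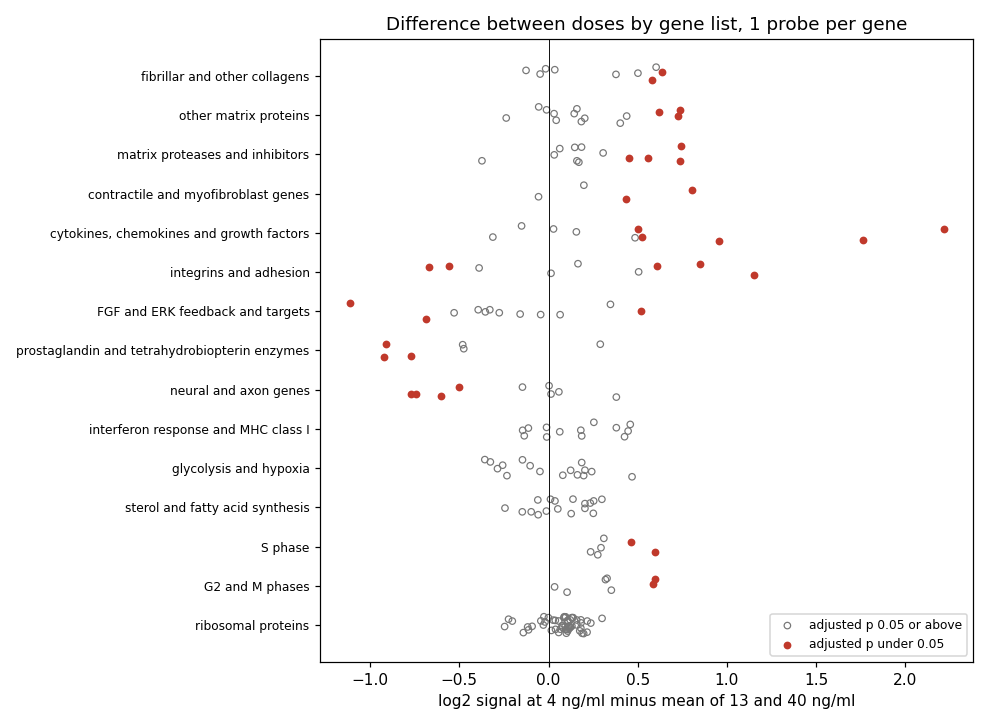
Log2 signal at 4 ng/ml minus the mean of 13 and 40 ng/ml for every tested gene of 15 gene lists, 1 point per gene; filled points had an adjusted p under 0.05 in limma. Filled points lie to the right for cytokines, matrix, protease and contractile genes, to the left for prostaglandin and neural genes, on both sides for integrins and for FGF and ERK genes, and are absent for interferon, glycolysis, sterol and ribosomal genes.

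Lowered genes at plateau included Col4a5, a chain of basement membrane collagen, with 9.90, 9.94 and 9.72 on the controls and 8.10, 8.02 and 8.03 at 4, 13 and 40 ng/ml (95% interval -0.18 to 0.34). Marcks, a substrate of protein kinase C that binds actin and membrane, had 12.35, 12.36 and 12.37 on the controls and 10.82, 10.76 and 10.59 at the 3 doses (interval -0.10 to 0.39). The 3 treated arrays of both genes lay far below all controls and within 0.3 of one another. Pik3r1, the regulatory subunit of PI3 kinase, had reached 88.7% of its fall (interval -0.08 to 0.43), Elmo3, an engulfment and motility protein, 95.5% (-0.19 to 0.29), and the transcription factor Maf 96.8% (-0.42 to 0.51). The intervals of Parm1 (0.01 to 0.48), Uba7, the activating enzyme of the interferon-induced modifier ISG15 (0.01 to 0.55), and Cryzl2 (0.00 to 0.49) lay within 1.5-fold and above 0. Elmo3 and Maf were dim, with 7.27 and 7.47 at 4 ng/ml. The median log2 signal at 4 ng/ml was 8.03 for lowered plateau probes and 8.98 for lowered probes that changed further. Whether low signal narrowed the dose differences of plateau probes was not tested.

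Of 13 tested genes of the interferon response and MHC class I, 5 were lowered responders. Between doses 0 differed in limma (4 at an unadjusted p under 0.05). Of 3605 named genes, 94 were lowered responders, 164 differed between doses and 728 had an unadjusted p under 0.05. Irf9, the DNA-binding subunit of the interferon-stimulated gene factor, had 7.92 at 4 ng/ml and 7.42 and 7.56 at the higher doses over a control mean of 9.37, or 77.4% of its fall. Its difference of 0.43 ± 0.17 did not pass (adjusted p = 0.189), and its dose class was undetermined. Oas1a, Mx2 and Ifit3, antiviral effector genes, were undetected on all 3 treated arrays.

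Of 8 receptors, ligands and co-receptors of FGF, 0 were called in limma (0 at an unadjusted p under 0.05), and all 8 intervals lay within 1.5-fold. Fgfr1, the main FGF receptor of fibroblasts, had 7.13 at 4 ng/ml and 6.85 and 7.03 at 13 and 40 ng/ml over a control mean of 7.01. Signals at this level lie near the detection limit, where a change could be missed. Among 12 FGF and ERK feedback and target genes, Errfi1 and Rasa1 were lower at 4 ng/ml, against 74 of 3605 named genes. Junb, a subunit of the AP-1 transcription factor, was higher (0.52 ± 0.11, adjusted p = 0.0309), against 90 of 3605. The call for Junb ended in 8 of 13 alternatives, and those for Errfi1 and Rasa1 in 0. By their brightest probes, the cell cycle regulator Ccnd1 (-0.53 ± 0.14, adjusted p = 0.0542) and the ETS transcription factor Etv1 (-0.35 ± 0.12, adjusted p = 0.13) were undetermined, with 71.3% and 83.8% of their rises at 4 ng/ml. The other probes disagreed, since for Ccnd1 a second probe changed further (-0.51, adjusted p = 0.021) and another was at plateau (-0.27, adjusted p = 0.278). A second probe of Etv1 was not a responder (mean response 0.27). No call was made in glycolysis and hypoxia (0 of 16, with 4 at an unadjusted p under 0.05) or sterol and fatty acid synthesis (0 of 17, with 3). The same held for p53 targets (0 of 6, with 0), the unfolded protein response (0 of 5, with 1) and ribosomal proteins (0 of 54, with 3). Of 3605 named genes, 164 were called and 728 had an unadjusted p under 0.05. Lists of 5 to 17 genes would hold few calls at that share, so 0 calls there is near the background.

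Genes outside the responsive set accounted for 305 of the 579 differing probes. Of these, 238 still had an adjusted p under 0.05 for the mean response to FGF2, at less than 2-fold. In 271 the 4 ng/ml array deviated from the higher doses in the direction of the zero level. That direction alone does not show a partial response, since the 4 ng/ml array can lie past the controls, as in H2ac10 and H2ac12. Ifngr2, a subunit of the interferon gamma receptor, had 10.62, 10.45 and 10.84 on the controls, 10.79 at 4 ng/ml, and 11.56 and 11.60 at the higher doses (-0.79 ± 0.15, adjusted p = 0.0132), so that its 4 ng/ml array lay within the controls. Angptl4, a secreted inhibitor of lipoprotein lipase, had 12.21 at 4 ng/ml and 12.86 and 12.91 at the higher doses over a control mean of 12.04 (adjusted p = 0.0096). Btbd11 and Ttyh1 were undetected on the controls and at 4 ng/ml and were at least 1.35-fold and 1.02-fold higher at 13 and 40 ng/ml. These genes too passed the detection filter only through the higher-dose arrays. By its brightest probe, Spats2l fell mainly at the higher doses, with 8.34 at 4 ng/ml and 7.73 and 7.39 beyond it over a control mean of 8.70 (0.78 ± 0.15, adjusted p = 0.0173). A second Spats2l probe was a lowered responder (mean response -1.16) that changed further (0.79 ± 0.11, adjusted p = 0.0035), with 44.7% of its fall at 4 ng/ml. The calls for Ifngr2, Spats2l and Ttyh1 each ended in 3 alternatives, for Angptl4 in 2 and for Btbd11 with neqc.

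Core histone genes were the named genes outside the responsive set with the largest differences higher at 4 ng/ml. H2ac10 had log2 signals of 10.92, 10.90 and 10.90 on the controls, 11.46 at 4 ng/ml, and 10.57 and 10.49 at 13 and 40 ng/ml (0.93 ± 0.10, adjusted p = 0.000891). H2ac12 had 9.38, 9.22 and 9.41 on the controls, 9.84 at 4 ng/ml and 8.97 and 8.80 at the higher doses (0.96 ± 0.12, adjusted p = 0.00204). In both genes the 4 ng/ml array lay above all controls and both higher-dose arrays below them. H2ac22 (0.88, adjusted p = 0.00133), H2ac13 (0.79, adjusted p = 0.00289) and H2ac24 (0.75, adjusted p = 0.0034) had the same pattern, and all 5 kept their calls in all 13 alternatives. These genes encode histone H2A copies made chiefly in S phase, lie on chromosome 13 and are nearly identical in sequence, so their probes may share signal and are not independent. Over the wider family of replication-dependent core histone genes, chosen after these values were seen, 7 of 33 tested genes were higher at 4 ng/ml and 0 lower, against 90 and 74 of 3605 named genes. The 7 include the 5 H2A genes that prompted the count, so the count is no separate support. The others, H4c11 and H4c18, each lost their calls in 7 alternatives. Over the 33 genes, with the 5 H2A genes included, the median difference was 0.34.

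The promoters of H2ac10 and H2ac12 are shown because both genes moved together. They are the 300 bases around the transcript start in RefSeq (GRCm38.p6), at chr13:23533625-23533924 on the plus strand and chr13:22035594-22035893 on the minus strand, and are written 5′ to 3′ along the gene. Capitals mark CCAAT on either strand, a motif known to bind the factor NF-Y.
H2ac10: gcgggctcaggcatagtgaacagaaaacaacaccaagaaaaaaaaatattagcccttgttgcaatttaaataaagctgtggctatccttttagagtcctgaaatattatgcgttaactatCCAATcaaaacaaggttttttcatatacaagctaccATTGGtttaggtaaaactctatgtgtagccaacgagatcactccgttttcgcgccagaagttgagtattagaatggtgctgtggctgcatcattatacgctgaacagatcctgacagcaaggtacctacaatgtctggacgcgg
H2ac12: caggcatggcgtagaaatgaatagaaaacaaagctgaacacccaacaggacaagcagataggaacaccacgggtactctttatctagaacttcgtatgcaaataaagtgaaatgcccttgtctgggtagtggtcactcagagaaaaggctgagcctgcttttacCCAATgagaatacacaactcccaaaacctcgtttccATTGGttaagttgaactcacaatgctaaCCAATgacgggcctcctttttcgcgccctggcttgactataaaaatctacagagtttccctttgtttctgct
The motif occurred 2 times in H2ac10, 3 times in H2ac12 and H2ac24 and 4 times in H2ac13 and H2ac22, whereas 37.4% of 32851 mouse promoters of this length held it at least 1 time and 11.7% at least 2 times. A match of letters is a description and not evidence that the factor binds there. The motif TATAAA was also searched, on either strand. It occurred 1 time in H2ac12 and H2ac22 and 0 times in H2ac10, H2ac13 and H2ac24, and 13.6% of the 32851 promoters held it. Promoters of histone genes without this expression pattern were not counted separately.

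Some other cell cycle genes were also higher at 4 ng/ml. Over all lists, 90 of 3605 named genes were higher there. Of 6 tested S phase genes, the chromatin regulator Uhrf1 (10.16 at 4 ng/ml, 9.55 and 9.60 at the higher doses, control mean 9.58, adjusted p = 0.0101) and the ribonucleotide reductase subunit Rrm2 (8.65, 8.23 and 8.15, control mean 8.16, adjusted p = 0.0338) were higher at 4 ng/ml. At both higher doses these genes were near the control level. Of 7 tested G2 and M genes, the mitotic kinase Plk1 (0.60 ± 0.13, adjusted p = 0.0285) and Birc5, which encodes survivin (0.59 ± 0.13, adjusted p = 0.03), were higher at 4 ng/ml. The median differences of the S phase and the G2 and M lists were 0.30 and 0.33, against 0.01 over all named genes. The calls for Uhrf1, Rrm2, Plk1 and Birc5 ended in 3, 6, 6 and 7 of the 13 alternatives, each time including the fits without the 13 or the 40 ng/ml array. The cells had been treated with mitomycin C, and the number of cycling cells was not measured.

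**Figure D5:**
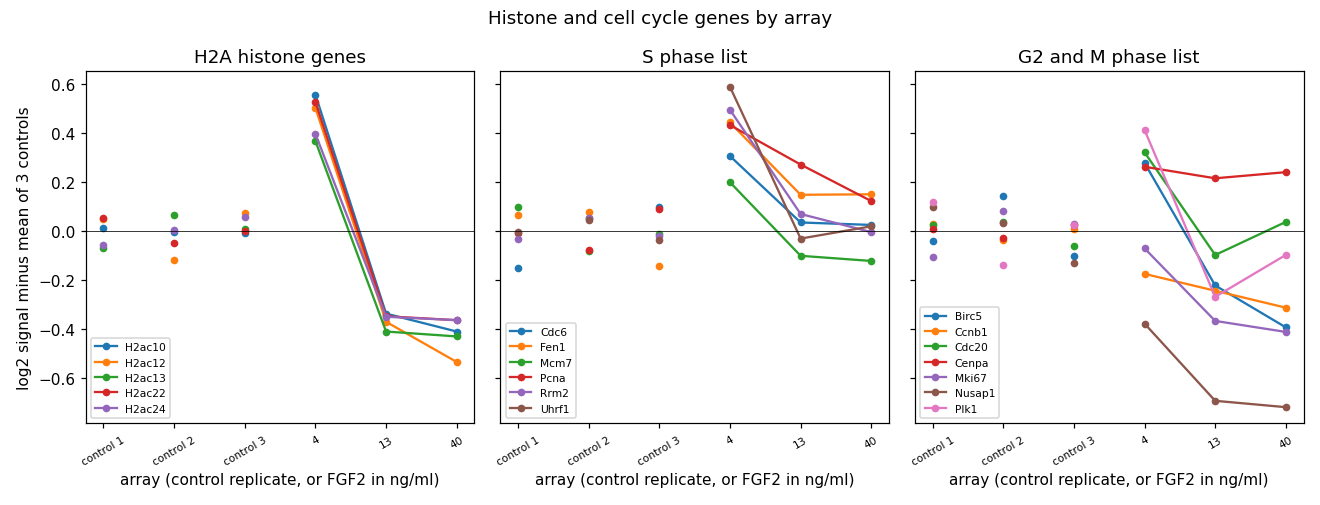
Log2 signal minus the mean of 3 controls on every array for 5 H2A histone genes, the tested S phase genes and the tested G2 and M phase genes; points are single arrays and lines join the 3 FGF2 doses. The H2A genes lie above the controls at 4 ng/ml and below them at 13 and 40 ng/ml, and the S phase genes are highest at 4 ng/ml.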

How the data were processed

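The authors deposited, for each array, 1 averaged linear intensity for every probe and a detection score between 0 and 1, per the file headers; the submitters' processing notes name BeadStudio 1.0. No normalisation by the authors is recorded in those headers. The authors' deposited value table, also in intensity, served only as an alternative. Signals were background-corrected with normexp (offset 50), quantile-normalised and taken to log2 in limma 3.58.1 (R 4.3.3). Probes with a score of at least 0.99 on at least 2 of 6 arrays were tested with lmFit and eBayes (3 residual and 7.44 prior degrees of freedom), two-sided. The number of arrays limits the precision.

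The number after 1 or 2 leading zeros in a probe's identifier was taken for an NCBI gene number, and looking it up in RefSeq (GRCm38.p6) named 9841 probes and 8131 genes. Of such numbers 81.1% (1 zero) and 84.8% (2 zeros) are mouse gene numbers, against 24.9% and 26.6% after a shift. With 2 zeros only 10 of 21 ribosomal protein probes were detected, against 57 of 57 with 1. The reading with 2 zeros is thus less well supported. By their brightest probes, genes named in that way include Spp1, Ptn, Itga11, Socs2, Cited2, Srxn1, Ptges, Acta2, Timp3, Col4a5 and Pik3r1. Each gene is represented by its brightest probe; of 11 genes with 2 responsive probes, 0 moved in opposite directions and 5 had probes of the same dose class.

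The dose groups follow the labels. Named are the 10 raised and 10 lowered genes with the largest dose difference, the 8 raised and 8 lowered plateau genes with the largest response, the 5 and 5 non-responsive genes with the largest difference, and members of gene lists. The alternatives changed the background correction, normalisation, filter, prior, classes, fold, margin, scale or the arrays included. Results for a few genes are not reported here. The members and lists were chosen with earlier results of these data known.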

Additional observations from a re-analysis of the deposited data

Results flagged for a closer look

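Some genes lay on opposite sides of the controls at 4 ng/ml and at the higher doses. Each value below is the log2 signal at 4 ng/ml minus the mean of 13 and 40 ng/ml. Every gene passed limma's test of that difference (adjusted p under 0.05), and its position relative to the controls was not tested separately. Over all probes, 41 called probes lay above all controls at 4 ng/ml and below all of them at 13 and 40 ng/ml, and 31 the reverse, against 163 and 180 probes with these positions that were not called.

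By the brightest probe of each gene, above the controls at 4 ng/ml and below them at the higher doses were the H2A histone genes H2ac12 (0.96), H2ac10 (0.93), H2ac22 (0.88), H2ac13 (0.79) and H2ac24 (0.75). Others were Cdo1, a cysteine dioxygenase (0.74), the kininogen gene Kng1 (0.72), the microtubule-destabilising Stmn1 (0.68), the transporter gene Slco3a1 (0.60), Birc5 (0.59), Flrt2 (0.55), Acat3 (0.54), Junb (0.52), Snx19 (0.47) and Zfp346 (0.41). Below the controls at 4 ng/ml and above them at the higher doses were the ubiquitin ligase genes Cul3 (-0.58) and Trip12 (-0.57), Vasn (-0.56), the m6A reader gene Ythdc1 (-0.53), the sodium pump subunit gene Atp1b1 (-0.51), Slain2 (-0.50), G3bp2 (-0.50), the mitochondrially encoded ND4 (-0.46) and Tmem68 (-0.43). Of the genes in this paragraph, only the 5 H2A genes kept their calls in all 13 alternatives.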

How the results depend on the processing

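Of the 81 called genes followed through the alternatives (77 with detection on at least 3 arrays), none changed direction. Rbm47, Dlgap1, Btbd11 and Ttyh1 were not tested with detection on at least 3 arrays. The number of differing probes (579) was 302 with median scaling, 285 without the filter, 349 with 4 classes, 164 by named gene, and 151 to 884 when 1 array was left out (360 without control replicate 1, 884 without control replicate 2, 176 without the 13 ng/ml and 151 without the 40 ng/ml array); neqc gave 400. The share of them higher at 4 ng/ml (49.2%) was 40.75% with neqc, 35.8% with median scaling, 54.9% by named gene and 47.5% to 53.4% with 1 array left out. Of those 81 genes, 24 kept their call in every alternative, 37 lost it with neqc, 32 with median scaling, 34 without the filter, 42 without the 13 ng/ml and 49 without the 40 ng/ml array, the last 2 being fits with fewer arrays. Raised responders (258) were 741 at a fold of 1.5, 102 at 3 and 64 by named gene, and lowered responders (344) were 903, 126 and 94. Raised probes that changed further (141) were 207 at a fold of 1.5, 75 at a fold of 3, 31 by named gene and 61 to 165 with 1 array left out (63 without 13 ng/ml, 61 without 40 ng/ml). Lowered probes that changed further (130) were 63 with neqc, 67 with median scaling, 79 without the filter, 176 at a fold of 1.5, 63 at a fold of 3, 39 by named gene and 45 to 154 with 1 array left out (57 without 13 ng/ml, 45 without 40 ng/ml). Raised plateau probes (61) were 35 with median scaling, 7 and 115 at the stricter and the 2-fold margin, 354 and 16 at folds of 1.5 and 3, 14 by named gene and 39 to 69 with 1 array left out (39 without 13 ng/ml). Lowered plateau probes (59) were 73 with neqc, 4 and 149 at those margins, 367 and 10 at those folds, 9 by named gene and 37 to 80 with 1 array left out (37 without 40 ng/ml). The median share for raised probes (69.1%) was 69.8% with neqc, 70.1% with offset 16, 65.4% with median scaling, 71.4% at a fold of 3, 69.8% by named gene, 69.3% to 70.6% with 1 array left out, 54.7% in linear signal and 71.1% in the authors' deposited table. For lowered probes (71.3%) it was 76.7% with neqc, 74.8% with median scaling, 72.8% and 74.9% at folds of 1.5 and 3, 69.5% by named gene, 70.7% to 73.3% with 1 array left out, 82.4% in linear signal and 69.9% in the authors' deposited table. Apart from the construction of each alternative, the cause of these shifts was not tested. No paired analysis was possible because each dose has 1 array. Dim probes near the detection limit give bounds only.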
